A study of Mus musculus with 16 samples.

Results

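The 10 genes described here make prostaglandins or receive their signal. They comprise 4 enzymes of prostaglandin synthesis (*Ptgds*, *Ptgs1*, *Ptgs2* and *Ptges*) and 6 prostaglandin receptors (*Ptger1*, *Ptger2*, *Ptger3*, *Ptger4*, *Ptgir* and *Ptgfr*), out of 22609 genes counted in each library. The genes were chosen by symbol and from the measured level of *Ptgds*, which was high in each trigeminal library. The trigeminal level of *Ptgds* is therefore a description and carries no test here, whereas the other 9 genes, and *Ptgds* outside the trigeminal ganglion, were tested.

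RNA was sequenced from sensory neurons of 4 kinds of ganglion, with 4 libraries each: the trigeminal ganglion (TG), which serves face and meninges; the vagal nodose and jugular complex (NG/JG), which serves viscera; the lumbar L3-L5 DRG, which serve the hind limb; and the thoracolumbar T10-L1 DRG. All 16 libraries were labelled as male C57BL/6J. The mice were naive young adults that carried 1 copy each of Pirt-cre and of a Cre-dependent tdTomato reporter in Rosa26, so that red cells are those in which the Pirt promoter had driven Cre at any earlier time, and no group was treated. Cells of left and right ganglia were sorted repeatedly for bright tdTomato, and dim cells were left out. Whether the 4 libraries of a ganglion came from different mice is not given in the sources used here, so the p-values measure only the spread between libraries.

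Each library held between 4735624 and 13333318 reads on genes. A count of 3 reads, taken as the floor below which a gene was not distinguished from absence, equalled 0.225 to 0.633 CPM, the count scaled to a total of 1000000 reads on genes. Between 10132 and 18571 genes had reads. Each NG/JG library (10132 to 13029 genes) had fewer than any DRG library (13617 or more), while TG (11527 to 15354) overlapped with NG/JG. *Xist*, a transcript of female cells, had 1279 to 8362 reads in each library and the 13 chromosome Y genes had 0 reads in all 16 libraries, which goes against the label male in every group alike. The summed level of 12 sensory-neuron markers ran from 994 CPM in TG library 1 to 12997 CPM in L3-L5 DRG library 3. Schwann-cell markers summed to 9892 to 66975 CPM and satellite-glia markers to 11763 to 62493 CPM, so glial RNA was plentiful in libraries sorted as neurons. The libraries are bulk samples, in which fewer cells of a type and less RNA per cell cannot be told apart.

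Prostaglandins are lipid signals made on demand. Phospholipases free arachidonic acid from membranes, the cyclooxygenases encoded by *Ptgs1* and *Ptgs2* turn it into a common precursor, and terminal synthases then make prostaglandin D2, E2, F2 alpha, prostacyclin or thromboxane. Each product acts through its own G protein-coupled receptors, and prostaglandin E2 and prostacyclin are known for lowering the activation threshold of nociceptive neurons. *Ptgds* encodes the lipocalin-type prostaglandin D synthase, which is also a secreted carrier of small lipophilic molecules and is known from leptomeninges, choroid plexus and oligodendrocytes.

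*Ptgds* was the dominant prostaglandin gene of TG and was far lower in the other ganglia. Its level was 1091, 1991, 1067 and 646 CPM in TG libraries 1 to 4. In NG/JG it was 58.2, 0.228, 34.0 and 40.3 CPM, in L3-L5 DRG 7.98, 0.893, 2.80 and 30.2 CPM, and in T10-L1 DRG 50.9, 3.62, 7.32 and 14.7 CPM. All 4 TG libraries thus lay above the other 12, and the lowest of them was 11.1 times the highest of the others, NG/JG library 1. The mean of TG (1198 ± 566 CPM, SD, n = 4) was 36.1 times that of NG/JG (33.2 ± 24.2 CPM), 62.6 times that of T10-L1 DRG (19.1 ± 21.7 CPM) and 114 times that of L3-L5 DRG (10.5 ± 13.5 CPM). Without TG library 1, which had the fewest genes with reads in its ganglion, the smallest of these ratios was 37.2.

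Among all genes ranked by CPM, *Ptgds* stood at rank 71, 29, 71 and 154 in TG libraries 1 to 4, and at rank 3857 to 12107 in the other 12. It supplied 90.9% to 96.0% of the summed CPM of the 10 genes in TG, against 3.55% to 15.8% in T10-L1 DRG, 0.156% to 27.1% in NG/JG and 0.341% to 19.3% in L3-L5 DRG. The other 9 genes together summed to 64.3 to 94.3 CPM in TG and to 97.0 to 399 CPM across the other 3 ganglia. On the scale that also divides CPM by exon length in kilobases (RPKM), *Ptgds* averaged 727 in TG, and the next member there, *Ptges*, 9.66. By mean RPKM *Ptgds* ranked 2 of the 10 genes in NG/JG (20.1) and in T10-L1 DRG (11.6), and 4 in L3-L5 DRG (6.35).

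Outside TG the *Ptgds* levels overlapped in each pair of ganglia. The order of the means was NG/JG, T10-L1 DRG, L3-L5 DRG, and no neighbours in it differed beyond their spread. In edgeR's quasi-likelihood test, with Benjamini-Hochberg adjustment over all genes tested, the log2 fold change was 0.90 ± 1.34 (SE) for NG/JG over T10-L1 DRG (adjusted p = 1.00). It was 1.84 ± 1.5 for NG/JG over L3-L5 DRG (adjusted p = 0.999) and -0.95 ± 1.11 for L3-L5 DRG over T10-L1 DRG (adjusted p = 0.881).

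Markers of other cell types, among them cells known to express *Ptgds*, also differed between the ganglia. Of 11 oligodendrocyte markers, all were above the floor in at least 1 TG library, with a summed level of 1104 to 2901 CPM, against 657 to 1024 CPM in NG/JG, 230.2 to 1138 CPM in L3-L5 DRG and 535 to 1508 CPM in T10-L1 DRG. *Mog*, which encodes a myelin protein of oligodendrocytes, was at 10.4 to 147 CPM in TG, at 0 to 0.553 CPM in NG/JG, at 0 to 1.27 CPM in L3-L5 DRG and at 0 to 12.2 CPM in T10-L1 DRG. In NG/JG *Opalin*, *Ermn*, *Hapln2*, *Olig1* and *Olig2* were at or below the floor in all libraries, so the sum there came from other markers of the list. Of 12 leptomeningeal fibroblast markers, all were above the floor in at least 1 library of TG, of L3-L5 DRG and of T10-L1 DRG, whereas 5 stayed at or below it in each NG/JG library (*Slc6a13*, *Slc47a1*, *Slc22a6*, *Zic1* and *Igf2*). Their sum was 4065 to 6916 CPM in TG, 78.4 to 2542 CPM in NG/JG, 299 to 4206 CPM in L3-L5 DRG and 1625 to 7381 CPM in T10-L1 DRG. *Dcn* and *Lum*, which other fibroblasts express too, made up most of these sums, among them the highest, that of T10-L1 DRG library 4 (6069 CPM of *Dcn* and 1253 CPM of *Lum*), which had 14.7 CPM of *Ptgds*. *Slc6a13*, *Slc22a6* and *Igf2*, by contrast, reached 107, 50.8 and 92.3 CPM in TG, 12.2, 1.38 and 7.43 CPM in T10-L1 DRG, and 13.9, 0.845 and 28.3 CPM in L3-L5 DRG. The 7 satellite-glia markers did not move as 1 group. *Apoe*, which made up most of their sum, averaged 46208 CPM in TG and 16277 to 28521 CPM in the other ganglia, whereas *Cdh19* averaged 364 against 689 to 1774 CPM and *Ednrb* 406 against 567 to 1011 CPM. For deviations of log2(CPM + 1) from the ganglion means, *Ptgds* had a Pearson r of 0.30 with the oligodendrocyte sum. With the leptomeningeal and satellite-glia sums it was 0.28 and 0.22. It was 0.65 with endothelial, 0.59 with Schwann-cell and -0.64 with sensory-neuron markers. The part of any of these cell types in the *Ptgds* level was not tested.

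*Ptgds* lies on mouse chromosome 2 (mm9, chr2:25322229-25325566, minus strand) and its exons overlap no other gene. Since *Ptgds* is the member that set TG apart, the 250 bases before its annotated start are shown, from RefSeq on the build GRCm38.p6, which is not the mm9 build of the counts. Capitals mark TGANTCA, a sequence read by AP-1 factors, which begins 35 bases before the start. Of 32851 mouse promoters of the same length, 6.75% hold that motif on either strand. No other of the 9 members with a RefSeq promoter holds it (*Ptger1* is named only). A match of letters is not a binding site.

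*Ptgds* (chr2:25469750-25469999, minus strand): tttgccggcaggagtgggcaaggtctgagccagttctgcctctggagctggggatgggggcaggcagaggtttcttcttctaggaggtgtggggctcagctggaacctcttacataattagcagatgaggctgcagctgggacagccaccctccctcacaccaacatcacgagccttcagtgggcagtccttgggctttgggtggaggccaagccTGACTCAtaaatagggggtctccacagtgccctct

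**Figure D1:**
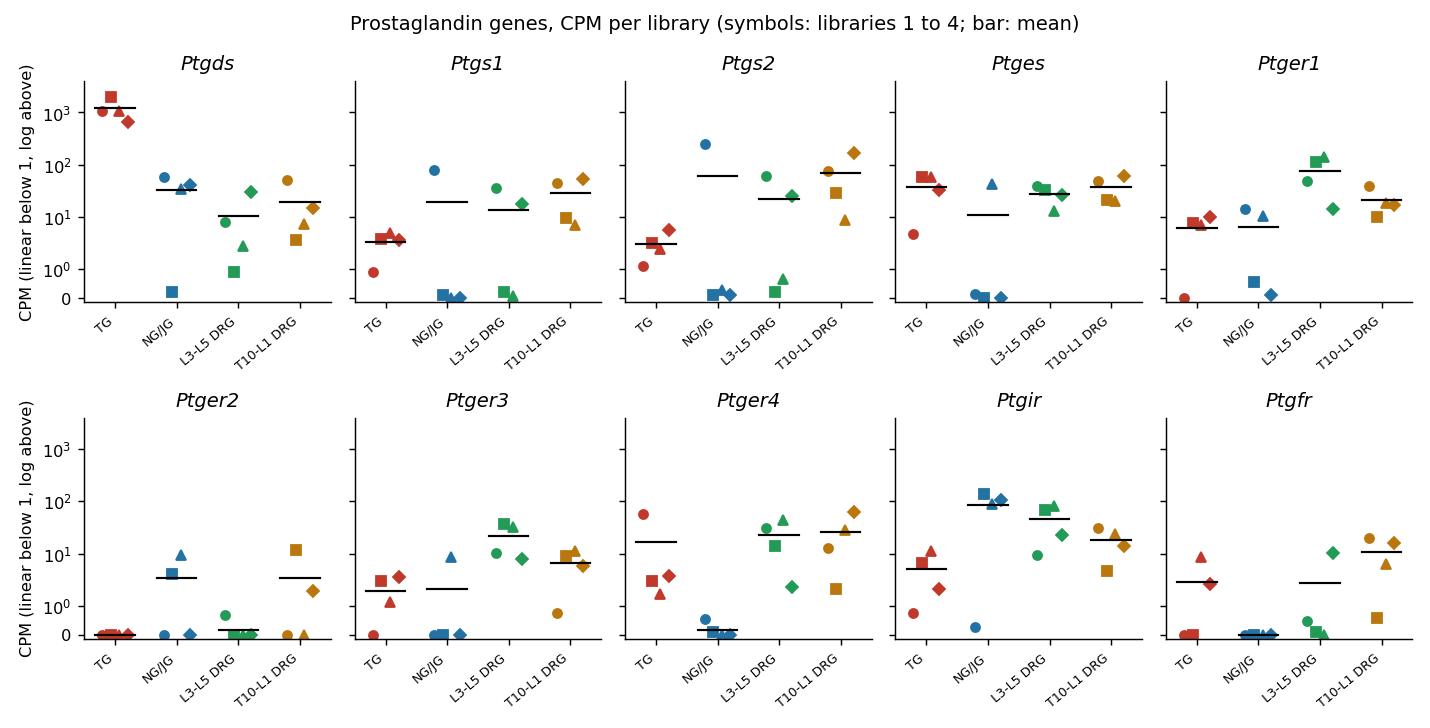
CPM of the 10 genes (vertical axis, linear below 1 and logarithmic above) in the 4 ganglia (horizontal axis); symbols are libraries 1 to 4 and the bar is the mean of 4. *Ptgds* lies between 646 and 1991 CPM in TG and at or under 58.2 CPM in the other 12 libraries, and most other genes spread over a wide range within a ganglion.

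The genes whose log2(CPM + 1) over the 16 libraries was most like that of *Ptgds*, among genes with a mean of at least 5 CPM, were *Fxyd3* (Pearson r = 0.90), *Ccdc12* (0.89), *S100b* (0.88), *Fam178b* (0.88) and *Rpl8* (0.88). S100b is a calcium-binding protein of glia and Rpl8 a ribosomal protein. The 16 points share ganglia, libraries and depth, and the correlation includes the step between TG and the rest. For deviations from the ganglion means r was 0.75 for *Fxyd3*, 0.55 for *Ccdc12* and 0.49 for *S100b*.

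The cyclooxygenases were low in every TG library and uneven elsewhere. *Ptgs1*, the isoform most tissues express at rest, was at 0.889, 3.74, 4.81 and 3.69 CPM in TG and at 43.9, 9.71, 7.15 and 53.3 CPM in T10-L1 DRG. *Ptgs2*, the inducible isoform and an immediate-early gene in neurons, was at 1.14, 3.15, 2.41 and 5.62 CPM in TG and at 75.7, 28.5, 8.63 and 166 CPM in T10-L1 DRG. For both genes each T10-L1 DRG library was above each TG library. The share of all genes that separate ganglia in this way is not given, here or for the genes below. NG/JG library 1 held 77.9 CPM of *Ptgs1* and 244 CPM of *Ptgs2*, while the other 3 NG/JG libraries had at most 0.114 and 0.276 CPM. L3-L5 DRG was split the same way, with 36.1 and 17.9 CPM of *Ptgs1* and 61.2 and 25.3 CPM of *Ptgs2* in libraries 1 and 4, and at most 0.198 and 0.659 CPM in libraries 2 and 3.

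*Ptgs2* was the only member tested that passed edgeR's quasi-likelihood test at an adjusted p under 0.05 in any pair. It was lower in TG than in T10-L1 DRG, by a log2 fold change of -4.15 ± 0.96 (SE), with an adjusted p of 0.0374. *Ptgs1* had -2.74 ± 0.93 in the same pair and did not pass (unadjusted p = 0.0140, adjusted p = 0.113). By this rule 5.87% of the 12914 genes tested in this pair were called, and 21.6% had an unadjusted p under 0.05, as did *Ptgs1* and *Ptgs2* of 8 members tested. DESeq2 called 15.4% of its genes and, of 9 members, *Ptgs1* (adjusted p = 0.00994) and *Ptgs2* (adjusted p = 9.75e-05), both lower in TG.

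The *Ptgs2* call depended on the libraries in the fit. It was lost on leaving out TG library 2, 3 or 4 or any single T10-L1 DRG library (adjusted p 0.0892 to 0.122), and held without TG library 1 (adjusted p = 0.0157). It was also lost when all 16 libraries shared 1 estimate of the spread (adjusted p = 0.432). The log2 fold change lay between -4.62 and -3.20 in these fits. The sum of 12 immediate-early genes, which tissue dissociation can induce, was 9691 to 24952 CPM in TG and 17298 to 38771 CPM in T10-L1 DRG. Within T10-L1 DRG it was lowest in library 4, which had the most *Ptgs2*. NG/JG library 1 had 24303 CPM beside 244 CPM of *Ptgs2*, and libraries 2 to 4 had 20243 to 51449 CPM beside at most 0.276 CPM. On log2(CPM + 1) over 16 libraries, its Pearson r with *Ptgs2* was 0.16, and 0.09 for deviations from the ganglion means. The part of this sum in the *Ptgs2* difference was not tested.

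The same pair of genes moved together from library to library. Over the 16 libraries the log2(CPM + 1) values of *Ptgs1* and *Ptgs2* had a Pearson r of 0.98 and a Spearman rho of 0.96, and r was 0.98 again for deviations from the ganglion means. Each was the gene most like the other among all genes compared. The points share depth and cell makeup, so this describes the libraries only. In the 11 libraries with both genes above the floor, *Ptgs2* was 0.469 to 2.93 times *Ptgs1* per exon length (RPKM), with a median of 1.43, and in 4 libraries neither was above it. The next genes in likeness to *Ptgs1* were *Bmp5* (0.95), *A830007P12Rik* (0.94), *Cd36* (0.93) and *Myof* (0.92), and those to *Ptgs2* were *Bmp5* (0.93), *A830007P12Rik* (0.92), *Nfam1* (0.92) and *Cd36* (0.92).

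**Figure D2:**
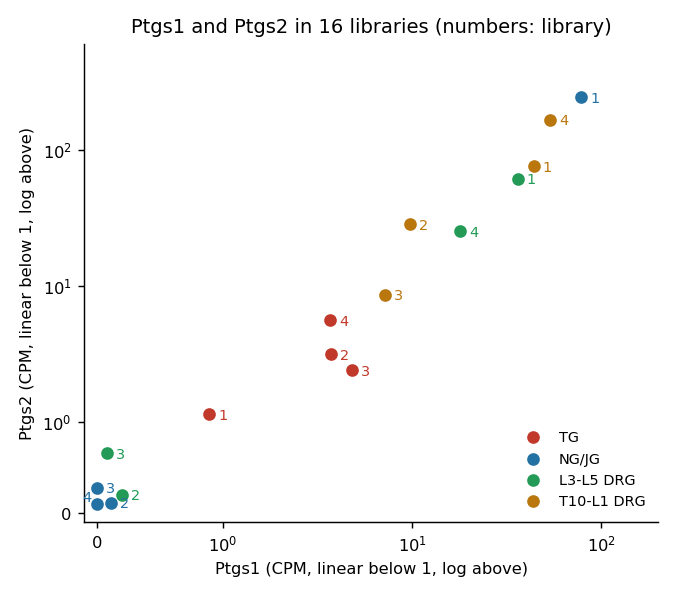
*Ptgs1* (horizontal axis) against *Ptgs2* (vertical axis) in 16 libraries, both in CPM on axes that are linear below 1 and logarithmic above; colours are ganglia and numbers are libraries. The points lie along 1 band (r = 0.98 on log2(CPM + 1)), with the 4 TG libraries in the middle and NG/JG library 1 at the top.

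Macrophages are a known source of both cyclooxygenases. Their markers were high and low in the same libraries of NG/JG and L3-L5 DRG, but not throughout T10-L1 DRG or in TG. The sum of 10 macrophage markers, of which all were above the floor in each ganglion, was 3137 CPM in NG/JG library 1 and 38.6 to 319 CPM in the other 3 NG/JG libraries. It was 5883 and 646 CPM in L3-L5 DRG libraries 1 and 4 against 63.0 and 90.1 CPM in libraries 2 and 3. In T10-L1 DRG libraries 1 to 4 it was 839, 902, 1300.3 and 14825 CPM. Library 1 thus had the lowest sum of its ganglion beside 43.9 CPM of *Ptgs1* and 75.7 CPM of *Ptgs2*, more of both than libraries 2 and 3. In TG the sum was 1997 to 7607 CPM, and *Ptgs2* there did not exceed 5.62 CPM. Leptomeningeal markers also followed the cyclooxygenases within ganglia (r of deviations 0.76 for *Ptgs1* and 0.73 for *Ptgs2*, against 0.80 and 0.82 for macrophage markers, n = 16 libraries). So did Schwann-cell markers (0.69 and 0.68) and endothelial markers (0.62 and 0.56), whereas sensory-neuron markers went the other way (-0.67 with each gene). The part of these cells in the cyclooxygenase levels was not tested.

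**Figure D3:**
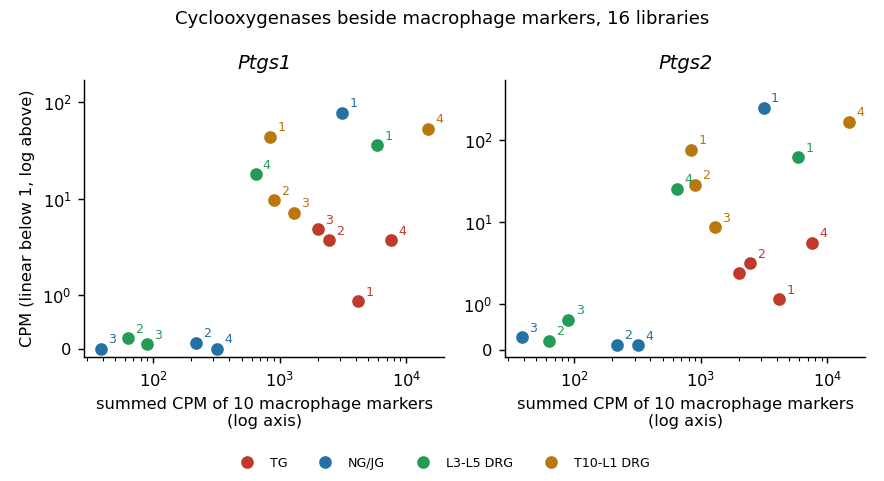
*Ptgs1* and *Ptgs2* (vertical axes, CPM, linear below 1 and logarithmic above) against the summed CPM of 10 macrophage markers (horizontal axis, logarithmic) in 16 libraries; colours are ganglia and numbers are libraries. Outside TG both genes are near 0 where the marker sum is at most 319 CPM, while the 4 TG libraries combine sums of 1997 to 7607 CPM with no more than 5.62 CPM of either gene.

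The promoters of the cyclooxygenases are shown because the genes rose and fell together in these libraries. *Ptgs1* lies at chr2:36085946-36107792 and *Ptgs2* at chr1:151947254-151955140 (mm9, both on the plus strand). The 250 bases before each RefSeq start (GRCm38.p6) share none of the 5 motifs searched on both strands. These were the AP-1 motif already given, the GC box with the letters GGGCGG, the core of the cyclic AMP response element (CRE) with the letters TGACG, the E-box with the letters CACGTG and the TATA box with the letters TATAAA. Capitals mark the single match, a GC box 170 bases before the *Ptgs2* start.

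*Ptgs1* (chr2:36230176-36230425, plus strand): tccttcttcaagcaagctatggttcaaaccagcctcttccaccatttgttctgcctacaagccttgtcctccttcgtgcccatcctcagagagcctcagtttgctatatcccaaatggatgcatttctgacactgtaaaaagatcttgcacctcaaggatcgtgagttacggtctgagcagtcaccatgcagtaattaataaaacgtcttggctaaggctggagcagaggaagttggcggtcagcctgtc

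*Ptgs2* (chr1:150099781-150100030, plus strand): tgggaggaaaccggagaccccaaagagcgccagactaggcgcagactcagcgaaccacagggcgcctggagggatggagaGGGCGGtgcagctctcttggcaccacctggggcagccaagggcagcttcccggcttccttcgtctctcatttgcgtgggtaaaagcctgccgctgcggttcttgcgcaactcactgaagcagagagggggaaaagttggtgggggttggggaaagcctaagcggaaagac

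The GC box is common, since 32.7% of 32851 promoters hold it, and 6 of the 9 members with a promoter do (*Ptgs2*, *Ptges*, *Ptger3*, *Ptger4*, *Ptgir* and *Ptgfr*). No member holds the CRE core, the E-box or the TATA box in this window, against 17.8%, 6.02% and 12.4% of all promoters. The window ends at the RefSeq start and bases past it were not searched. A motif missing here can therefore lie just outside, and the promoter as a whole is not shown to lack it. The GC share of the window was 58.4% for *Ptgds*, 48.0% for *Ptgs1* and 61.6% for *Ptgs2*.

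*Ptges*, the inducible microsomal synthase of prostaglandin E2, did not pass the test in any pair of ganglia. It was at 4.70, 56.9, 57.4 and 33.0 CPM in TG, at 39.0, 32.5, 12.9 and 25.8 CPM in L3-L5 DRG and at 47.7, 21.1, 19.8 and 62.0 CPM in T10-L1 DRG. In NG/JG it was read in library 3 (42.4 CPM) and was at or below 0.139 CPM in the other 3. No pair reached an unadjusted p under 0.05, but the test of any difference among the 4 ganglia called *Ptges* when NG/JG library 3 was left out. The mean levels of TG and T10-L1 DRG were 38.0 ± 24.9 and 37.6 ± 20.7 CPM (SD, n = 4). The genes most like it were *Atm* (r = 0.96), *Cstf1* (0.94), *Narfl* (0.93), *Pcp4l1* (0.93) and *Ocel1* (0.93), over 16 libraries.

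The receptors for prostaglandin E2 differed from each other in where they were read. *Ptger1* and *Ptger3*, which encode the receptors EP1 and EP3, were highest in L3-L5 DRG. *Ptger1* was at 47.8, 110.3, 137 and 13.9 CPM there, at 38.7, 9.90, 18.7 and 17.0 CPM in T10-L1 DRG, at 14.1, 0.569, 10.5 and 0.103 CPM in NG/JG, and at 0, 7.48, 6.87 and 10.01 CPM in TG. *Ptger3*, which couples to inhibition of adenylyl cyclase, was at 10.3, 36.4, 32.5 and 8.02 CPM in L3-L5 DRG and at 0, 2.95, 1.2 and 3.51 CPM in TG. In both genes all 4 L3-L5 DRG libraries were above all 4 TG libraries, with no share over all genes to set beside it. T10-L1 DRG lay between for *Ptger3*, at 0.764, 8.95, 11.1 and 5.78 CPM, and NG/JG had 8.57 CPM in library 3 and 0 in the other 3.

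Neither difference passed the adjusted test. For TG over L3-L5 DRG the log2 fold change was -3.27 ± 1.17 (SE) for *Ptger1* (unadjusted p = 0.0177, adjusted p = 0.166) in edgeR. For *Ptger3* it was -3.10 ± 1.28 (unadjusted p = 0.0345, adjusted p = 0.228). In that pair 0% of 12900 genes had an adjusted p under 0.05 and 18.2% had an unadjusted p under 0.05, as did 3 of 7 members tested (*Ptger1*, *Ptger3* and *Ptgir*, all lower in TG). DESeq2 called 11.3% of its genes and the same 3 of 8 members, with adjusted p 0.0332, 0.0310 and 0.0331. Without TG library 1 *Ptger1* passed in edgeR (adjusted p = 0.0360, log2 fold change -2.84).

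*Ptger1* was also higher in L3-L5 DRG than in the other ganglia by unadjusted tests alone. The log2 fold change was -3.55 ± 1.40 (SE) for NG/JG over L3-L5 DRG (unadjusted p = 0.0294, adjusted p = 0.676), a pair in which 0% of 12240 genes passed the adjusted and 6.04% the unadjusted rule. It was 1.87 ± 0.70 for L3-L5 DRG over T10-L1 DRG (unadjusted p = 0.0241, adjusted p = 0.785), where 0% of 13550 genes passed the adjusted rule, 6.07% the unadjusted rule and 0.5% that of DESeq2, with *Ptger1* the only member of 9 under the unadjusted rule and 0 of 10 called by DESeq2. The counting was not stated to use strand, so reads from a member and from any transcript of the other strand cannot be told apart.

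The highest values of *Ptger1* and *Ptger3* were in the libraries richest in neuronal RNA. L3-L5 DRG libraries 2 and 3 had the highest sums of 12 sensory-neuron markers among the 16, 11172 and 12997 CPM, against 994 to 5077 CPM in the other 14. All 12 markers were above the floor in at least 1 library of each ganglion. *Ptgdr*, which encodes the prostaglandin D2 receptor DP1 and is no member, followed suit with 32.4, 124, 106 and 5.70 CPM in L3-L5 DRG and 0, 15.9, 5.50 and 4.04 CPM in TG. Over 16 libraries *Ptger1* and *Ptger3* had r = 0.79, and *Ptger1* and *Ptgdr* 0.82, as values that share libraries and depth. With the neuronal sum r was 0.53 for *Ptger1* and 0.65 for *Ptger3*, and with the sum of the 12 immediate-early genes it was -0.70 and -0.62. That sum was also lowest in L3-L5 DRG libraries 2 and 3, at 5289 and 3148 CPM against 9691 to 51449 CPM in the other 14. Without L3-L5 DRG libraries 2 and 3, a choice made after seeing the data, the log2 fold changes of TG over L3-L5 DRG were -1.84 for *Ptger1* (adjusted p = 0.839) and -1.76 for *Ptger3* (adjusted p = 0.878). The part of the neuronal share and of the immediate-early genes in these differences was not tested.

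**Figure D4:**
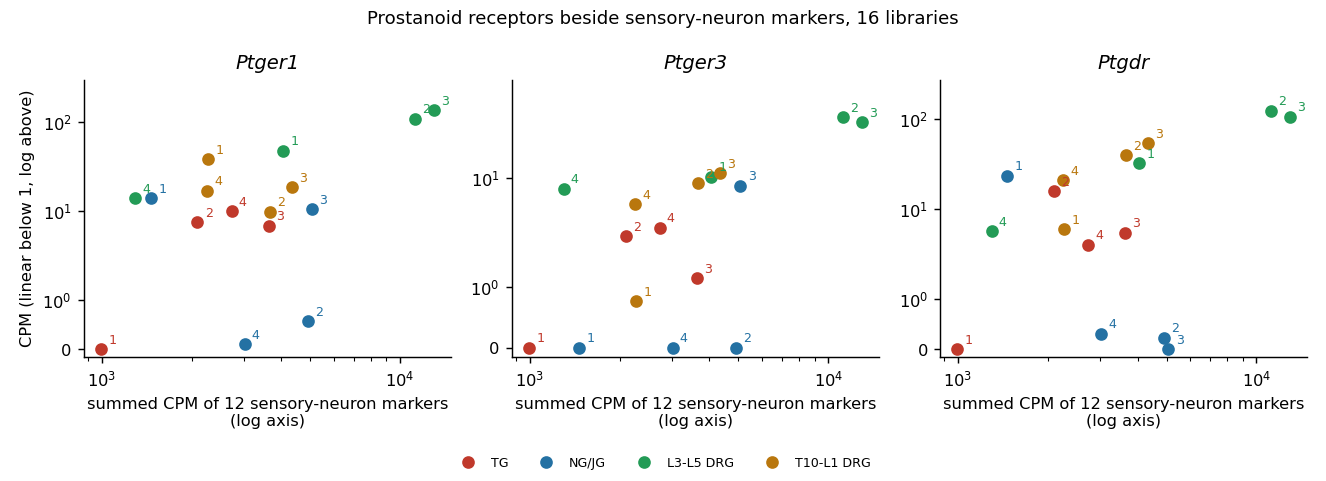
*Ptger1*, *Ptger3* and *Ptgdr* (vertical axes, CPM, linear below 1 and logarithmic above) against the summed CPM of 12 sensory-neuron markers (horizontal axis, logarithmic) in 16 libraries; colours are ganglia and numbers are libraries. L3-L5 DRG libraries 2 and 3 stand at the upper right in all 3 panels, with marker sums of 11172 and 12997 CPM, and TG library 1 at the lower left with 0 CPM of each receptor.

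Genes most like *Ptger1* over the 16 libraries were *Grm7* (r = 0.95), *Cobl* (0.93), *Tbc1d30* (0.93), *Acad11* (0.92) and *Golga3* (0.91), of which *Grm7* encodes a metabotropic glutamate receptor. Those most like *Ptger3* were *Gpr35* (0.94), *Cyb561* (0.93), *Camk1g* (0.93), *Zfp280b* (0.93) and *Lancl2* (0.93).

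*Ptger4*, which encodes the cyclic AMP-raising receptor EP4, was near absent in NG/JG. Its counts in NG/JG libraries 1 to 4 were 4, 1, 0 and 0 reads, or 0.556, 0.114, 0 and 0 CPM. It was at 57.4, 2.95, 1.72 and 3.69 CPM in TG, at 30.4, 14.3, 44.5 and 2.32 CPM in L3-L5 DRG and at 12.5, 2.09, 27.9 and 63.5 CPM in T10-L1 DRG. Each library of these 3 ganglia was above each NG/JG library. TG owed its mean (16.4 ± 27.3 CPM) to library 1, without which the other 3 ranged from 1.72 to 3.69 CPM.

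edgeR gave a log2 fold change for *Ptger4* of -7.25 ± 1.95 (SE) for NG/JG over T10-L1 DRG (unadjusted p = 0.00416, adjusted p = 0.197) and of -6.93 ± 1.95 for NG/JG over L3-L5 DRG (unadjusted p = 0.00523, adjusted p = 0.256). For TG over NG/JG it was 6.58 ± 2.24 (unadjusted p = 0.0128, adjusted p = 0.274), and 4.19 without TG library 1 (adjusted p = 0.208). With so few reads in NG/JG the size of these folds is uncertain. In each of these pairs *Ptger4* passed the low-count filter of edgeR only by its reads in the other ganglion. Its p-values there are therefore given as a description. DESeq2 called *Ptger4* lower in NG/JG against both T10-L1 DRG (adjusted p = 2.48e-05) and L3-L5 DRG (adjusted p = 3.30e-05), in pairs where it called 6.3% and 5.67% of its genes. For the first of these pairs 0.0322% of genes passed the adjusted and 5.91% the unadjusted rule of edgeR, against 0 and 1 (*Ptger4*) of 9 members tested. For the other, 0 and 2 (*Ptger1* and *Ptger4*) of 6 members did. Of the exon length of *Ptger4*, 16.5% is shared with *Gm15937* and *Ttc33* on the other strand. The most similar genes were *Ptk2b* (r = 0.88), *5031414D18Rik* (0.86), *Prex1* (0.86), *Mmp25* (0.85) and *Dnase1l3* (0.85).

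*Ptger2*, which encodes the other cyclic AMP-raising prostaglandin E2 receptor, EP2, was above the floor in 5 of 16 libraries. It had 0 reads in all 4 TG libraries, which allows up to 0.381 to 0.590 CPM there by counting error alone. It was at 3.98 and 9.40 CPM in NG/JG libraries 2 and 3, at 11.5 and 1.95 CPM in T10-L1 DRG libraries 2 and 4, and at 0.681 CPM in L3-L5 DRG library 1, and 0 in the rest. It passed the low-count filter of edgeR in 1 of the 6 pairs, NG/JG against T10-L1 DRG, where the means were 3.35 and 3.37 CPM. Against the floor of TG, the mean of NG/JG was at least 6.65-fold higher and that of T10-L1 DRG at least 6.69-fold higher, with 2 libraries of each at 0.

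*Ptgir*, which encodes the prostacyclin receptor IP, was the leading receptor of NG/JG. It was at 0.278, 141, 88.2 and 108 CPM in NG/JG, at 9.43, 67.3, 81.8 and 22.8 CPM in L3-L5 DRG, at 31.2, 4.66, 23.5 and 14.0 CPM in T10-L1 DRG and at 0.762, 6.49, 11.3 and 2.11 CPM in TG. NG/JG libraries 2 to 4 held the 3 highest levels of all 16 libraries, whereas NG/JG library 1 held the lowest. Per exon length the mean of *Ptgir* in NG/JG (25.3 RPKM) was first among the 10 genes. In L3-L5 DRG it came after that of *Ptger1* (13.6 against 15.6 RPKM).

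TG had less *Ptgir* than NG/JG by a log2 fold change of -3.80 ± 1.44 (SE; unadjusted p = 0.0219, adjusted p = 0.353) and less than L3-L5 DRG by -2.73 ± 1.01 (unadjusted p = 0.0213, adjusted p = 0.180) in edgeR, neither of which passed. DESeq2 called *Ptgir* in both pairs, with adjusted p 0.0476 and 0.0331. In TG against NG/JG 0.051% of 11769 genes passed the adjusted rule of edgeR, 10% the unadjusted rule and 6.39% that of DESeq2, against 0, 2 (*Ptger4* and *Ptgir*) and 1 (*Ptgir*) of 6 members tested. Without L3-L5 DRG libraries 2 and 3 the second fold change was -1.15 (adjusted p = 0.911). NG/JG library 1, with 0.278 CPM of *Ptgir*, was also the NG/JG library with the fewest neuronal marker reads (1462 CPM against 3010.3 to 5077 CPM) and the most macrophage markers. That relation was not tested. The genes most like *Ptgir* were *Nrip3* (r = 0.89), *Txnl4b* (0.88), *Slc5a5* (0.87), *Dkc1* (0.84) and *Tmem151b* (0.84).

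*Ptgfr*, which encodes the prostaglandin F receptor FP, was above the floor in 8 of 16 libraries and had 0 reads in all 4 NG/JG libraries. It was at 20.3, 0.571, 6.25 and 15.7 CPM in T10-L1 DRG, at 0, 0, 8.59 and 2.63 CPM in TG, and at 0.486, 0.0992, 0 and 10.1 CPM in L3-L5 DRG. Each T10-L1 DRG library was above the 4 NG/JG libraries. Against the floor of NG/JG the mean of T10-L1 DRG was at least 28.9-fold higher. DESeq2 called that difference (adjusted p = 2.20e-05), and in edgeR the gene did not pass the low-count filter in the pair. The gene followed mural-cell markers over the 16 libraries (r = 0.74, and 0.57 for deviations from the ganglion means), whose sum was 286 to 1255 CPM in T10-L1 DRG and 66.3 to 236 CPM in NG/JG, where *Rgs5*, *Myh11* and *Des* were at or below the floor. Their part in the *Ptgfr* level was not tested. The most similar genes were *Als2cl* (r = 0.91), *Fzd4* (0.88), *Cd248* (0.82), *Gpr30* (0.82) and *Gucy1a3* (0.80).

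**Figure D5:**
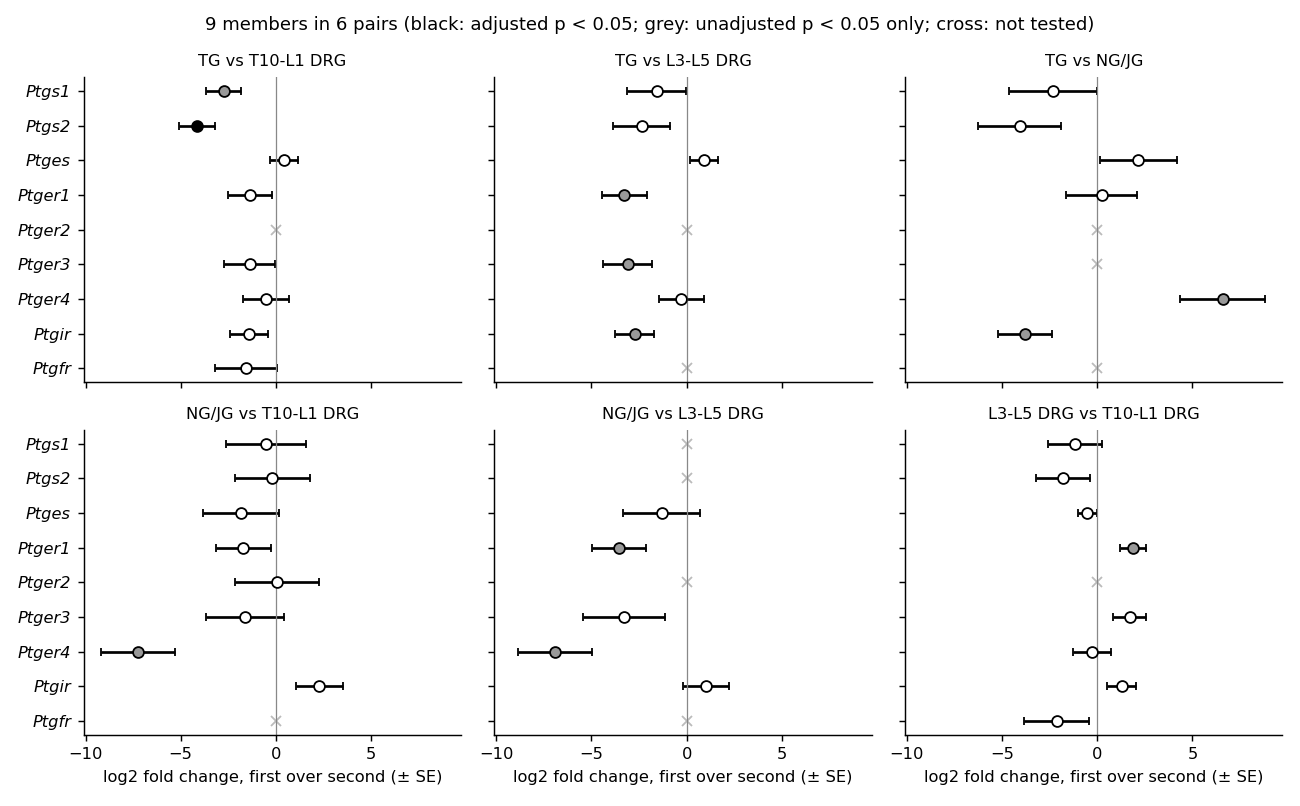
Log2 fold change (horizontal axis, first ganglion over second) with its standard error for the 9 genes other than *Ptgds* in the 6 pairs of ganglia, from edgeR. Only *Ptgs2* in TG over T10-L1 DRG is filled black (adjusted p = 0.0374), grey points had an unadjusted p under 0.05, white points neither, and crosses mark genes under the low-count filter.

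Counted over the 6 pairs, 45 tests of members were made in edgeR, of which 1 had an adjusted p under 0.05 and 11 an unadjusted one. Over all genes these shares were 0% to 5.87% and 5.91% to 21.6%, depending on the pair, and the tests of members share libraries between pairs. A test of any difference among the 4 ganglia, over 14236 genes, called 0 of 9 members by adjusted p and 4 by unadjusted p (*Ptger1*, *Ptger4*, *Ptgfr* and *Ptgir*, with adjusted p 0.263, 0.115, 0.255 and 0.244). The shares of all genes were 3.01% and 17.5%. DESeq2 called 12.7% of its genes and, among these 9, *Ptger4* (adjusted p = 0.00362). Apart from *Ptgds*, the median log2 fold change of the members tested was -1.40 in TG over T10-L1 DRG, -2.37 in TG over L3-L5 DRG and -1.05 in TG over NG/JG, beside -0.03, -0.03 and -0.05 over all genes tested. It was -3.29 beside 0.01 in NG/JG over L3-L5 DRG, -1.08 beside 0.02 in NG/JG over T10-L1 DRG and -0.40 beside 0.03 in L3-L5 DRG over T10-L1 DRG. The value of -3.29 leaves out members under the low-count filter in that pair. Of these, *Ptgs1*, *Ptgs2* and *Ptger2* had higher means in NG/JG and *Ptgfr* a lower one, so that median depends on the filter. These medians rest on 5 to 8 members, and the pairs share libraries.

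The rest of the pathway was read in 5 lists of 38 genes in all. In TG against T10-L1 DRG edgeR called 1 of 28 genes tested and 4 had an unadjusted p under 0.05, beside 5.87% and 21.6% of all genes. The called gene was *2810405K02Rik*, the gene of prostamide/prostaglandin F synthase, which was higher in TG. It was at 59.0, 117, 131 and 131 CPM in TG, 19.7, 28.1, 21.5 and 30.1 CPM in T10-L1 DRG, 49.2, 23.4, 26.4 and 38.2 CPM in L3-L5 DRG and 25.5, 26.4, 0.276 and 1.65 CPM in NG/JG. Each TG library was above the other 12, though narrowly for the lowest (59.0 against 49.2 CPM in L3-L5 DRG library 1). The share of all genes that set TG apart in this way is not given. The log2 fold change was 2.53 ± 0.40 (SE; adjusted p = 0.0254) over T10-L1 DRG, 2.09 ± 0.44 (adjusted p = 0.0829) over L3-L5 DRG and 3.28 ± 1.14 (adjusted p = 0.283) over NG/JG. DESeq2 called *2810405K02Rik* in TG over T10-L1 DRG (adjusted p = 1.40e-07) and over L3-L5 DRG (adjusted p = 0.000272), but not over NG/JG (adjusted p = 0.0740). It called 15.4%, 11.3% and 6.39% of its genes in these pairs. In the other 5 pairs 0 of the pathway genes tested had an adjusted p under 0.05 in edgeR, beside 0% to 0.051% of all genes. An unadjusted p under 0.05 was found for 4 of 28 in TG against L3-L5 DRG, beside 18.2% of all genes, and for 1 of 22 to 31 in each of the other 4 pairs, beside 5.91% to 10% of all genes.

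Among the 9 other prostanoid synthases, *Ptges2* (a further prostaglandin E synthase) was at 12.3 to 39.0 CPM in TG and 3.21 to 13.1 CPM in T10-L1 DRG (log2 fold change 2.30 ± 0.70, unadjusted p = 0.00806, adjusted p = 0.0833), and *Cbr1* had 1.26 ± 0.44 in that pair (adjusted p = 0.127). DESeq2 called *Ptges2* in that pair (adjusted p = 0.00345) but not *Cbr1* (adjusted p = 0.0630). *Ptges3*, the constitutive cytosolic synthase, had means of 61.8 to 67.2 CPM in the 4 ganglia. *Hpgds*, the synthase of prostaglandin D2 in blood cells, averaged 15.01 ± 10.2 CPM in TG, against 1198 ± 566 CPM of *Ptgds*. *Akr1b3* and *Akr1c18* stayed at or below the floor in each library.

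Of the 3 other prostanoid receptors, *Gpr44*, the second receptor of prostaglandin D2, was at or below the floor in all 16 libraries. *Ptgdr* had a log2 fold change of -2.98 ± 1.30 for TG over L3-L5 DRG (unadjusted p = 0.0441, adjusted p = 0.257). *Tbxa2r*, the thromboxane receptor, was at 0.139 CPM in 1 NG/JG library and 0 in 3, against 3.29 to 9.90 CPM in T10-L1 DRG and 5.35 to 39.2 CPM in L3-L5 DRG (adjusted p = 0.115 and 0.168 in edgeR, 3.58e-06 and 2.17e-06 in DESeq2). In both pairs *Tbxa2r* passed the low-count filter only by its reads in DRG, so these p-values too are a description. In TG it was at 0, 24.0, 0 and 23.4 CPM. Thus *Ptger4*, *Ptgfr* and *Tbxa2r* were all at 4 reads or fewer in each NG/JG library, while *Ptgir* was high in 3 of them. Low counts there were not limited to these receptors. *Ptgs1*, *Ptgs2*, *Ptges* and *Ptger3* were each at or below the floor in 3 NG/JG libraries. Every NG/JG library also had fewer genes with reads (at most 13029) than any DRG library (at least 13617). The part of this lower gene number in the receptor levels was not tested.

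Among the 11 genes of arachidonic acid release, *Pla2g4b* (log2 fold change 2.91 ± 1.10 for TG over T10-L1 DRG), *Pla2g4e* (-3.70 ± 1.66 for TG over L3-L5 DRG) and *Pla2g6* (1.85 ± 0.62 for L3-L5 DRG over T10-L1 DRG), all phospholipases A2, had an unadjusted p under 0.05 in 1 pair each, with adjusted p of 0.153, 0.271 and 0.785. DESeq2 called *Pla2g4b* in its pair (adjusted p = 0.0219) but not *Pla2g4e* (adjusted p = 0.0665) or *Pla2g6* (adjusted p = 0.244). None of the 7 genes of prostaglandin transport and breakdown and none of the 8 genes of the leukotriene branch had an unadjusted p under 0.05 in edgeR in any pair.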

How the data were processed

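RNA of sorted cells was made into SMART-seq2 libraries primed with oligo dT and sequenced in single reads of 50 bp. Per the labels, the authors aligned the reads to mm9 with TopHat2 and counted them with HTSeq, and the deposited counts are whole reads per gene, not normalized. Versions are not given in the sources used here. Reads that HTSeq put on no gene (29.6% to 66.6% of unique reads) or on several were left out of library totals. CPM was computed on the reads on genes, and RPKM with GENCODE M1 exon lengths on mm9.

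The members, gene lists and tests were chosen with earlier results of these data known. Each pair of ganglia was fitted on its 8 libraries with edgeR 4.0.16 (TMM factors, filterByExpr, quasi-likelihood F test, Benjamini-Hochberg over all genes tested), and DESeq2 1.42.0 was an alternative. All 10 members are named. A member's fold change and p are printed where its unadjusted p was under 0.05 in edgeR, and for *Ptgds* in the 3 pairs without TG as well. Of the other lists, genes are named under the same limits, except that *Ptges3*, *Hpgds*, *Gpr44*, *Akr1b3* and *Akr1c18* were added after their values were seen. For the 9 members with a mean of at least 5 CPM in a ganglion, the 5 genes with the highest Pearson r of log2(CPM + 1), among genes with a mean of at least 5 CPM, are given. Fold bounds use a floor of 3 reads per library. The fit was tested on simulated counts for TG against T10-L1 DRG. It called 116 of 200 genes changed 8-fold and 0 unchanged genes, so a gene that did not pass can still differ. Intervals and floors cover counting error only, since PCR copies were not marked. No 2 libraries of a ganglion agreed within sampling noise.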

Additional observations from a re-analysis of the deposited data

Results flagged for a closer look

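In 8 of 38 sets of 4 libraries with reads above the floor, 1 library stood far from the other 3 (Dixon's test at the 95% level). Chance flags about 1 in 20 for normally distributed values only. CPM values with many zeros need not follow that distribution, so the 8 flags have no exact chance rate beside them. *Ptgs1* was at 77.9 CPM and *Ptgs2* at 244 CPM in NG/JG library 1, against at most 0.114 and 0.276 CPM in the others. *Ptges* was at 42.4 CPM and *Ptger3* at 8.57 CPM in NG/JG library 3, against at most 0.139 and 0 CPM. *Ptger4* was at 57.4 CPM in TG library 1 against 1.72 to 3.69 CPM. *Ptgfr* was at 10.1 CPM in L3-L5 DRG library 4 against at most 0.486 CPM. *Ptger2* was at 11.5 CPM in T10-L1 DRG library 2 against at most 1.95 CPM, and at 0.681 CPM (7 reads) in L3-L5 DRG library 1 against 0. No *Ptgds* level was set apart within its ganglion in this way.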

How the results depend on the processing

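None of the 11 differences named for members changed direction under any alternative, and the 40 mean levels moved by less than 1 SD with TMM library sizes. The number of members called in TG against T10-L1 DRG was 1. It was 2 with DESeq2 and 0 with all 16 libraries in one fit, and 0 to 1 on leaving out single libraries. Against 0 called otherwise, DESeq2 called 3 members in TG against L3-L5 DRG, 1 in TG against NG/JG, 2 in NG/JG against T10-L1 DRG, 1 in NG/JG against L3-L5 DRG and 1 among the 4 ganglia. The fit of all 16 libraries called 1 in TG against NG/JG (*Ptger4*, adjusted p = 0.0441). Leaving out single libraries gave 0 to 1 in TG against L3-L5 DRG and 0 to 1 among the 4 ganglia, where *Ptger4* was called without TG library 1, *Ptgs2* without NG/JG library 1 and *Ptges* without NG/JG library 3. The cause was not tested. The ratio of *Ptgds* in TG to the next ganglion was 36.1, and 27.1 to 48.2 on leaving out single libraries. Of the 45 genes named as most like a member, 18 stayed among the 5 with Spearman's rho, 14 with deviations from the ganglion means and 26 with a pseudocount of 0.1, so the choice of these genes depends on the measure. With the library number as a replicate block, 0 members were called in TG against T10-L1 DRG (*Ptgs2* adjusted p = 0.111), and no other count changed. The numbers were not taken to pair libraries, since in no pair of ganglia did all 4 same-numbered correlations of deviations pass 0.1 (range -0.121 to 0.197). In each of the 6 pairs, however, the mean was higher for the same number (0.0138 to 0.122) than for different numbers (-0.0406 to -0.00476), and 9 of 16 libraries were closest to 1 of their own number, a hint from the data, not the design. At this depth 3 reads are 0.225 to 0.633 CPM, a level that *Ptger2* passed in 5 and *Ptgfr* in 8 of 16 libraries, the fewest of the members.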
